A study of Homo sapiens with 6 samples.

Results

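The genes described are the replication-dependent histone genes of the human histone clusters: every gene whose symbol is H1-1 to H1-6, or H2AC, H2BC, H3C or H4C followed by a number. The table held 61 of them among 25662 genes: 5 H1, 16 H2A, 15 H2B, 12 H3 and 13 H4 genes. Membership follows from the symbol. RNA was sequenced from A375, an established human melanoma cell line grown in DMEM with 10% fetal bovine serum. Control cells received the solvent DMSO and are titled 0 h, which leaves the length of DMSO exposure unstated. The other cells received 1 µM BMH-21 for 24 h. BMH-21 inserts itself between DNA bases and stops RNA polymerase I, which transcribes the ribosomal RNA genes. Each group had 3 libraries, called biological replicates by the submitters, and all 6 came from this single line.

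Nucleosomes wrap DNA around a core of the histones H2A, H2B, H3 and H4, and the linker histone H1 binds where DNA enters and leaves. The cluster genes make most of this protein while DNA is replicated. They have no introns in their coding part, and their mRNA classically ends in a short stem-loop in place of a poly(A) tail. The stem-loop is bound by SLBP, which governs the processing, translation and decay of these mRNAs. Some cluster genes also make longer, polyadenylated transcripts, known from differentiating and non-dividing cells. The labels name the molecule as polyadenylated RNA, and the protocol describes depletion of ribosomal RNA followed by random priming. An mRNA with no poly(A) tail would be captured under the second statement and not under the first, so the form of histone mRNA behind each value cannot be told apart here.

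The stem-loop is shown because it sets these mRNAs apart from others. A search of the GENCODE v29 transcript models found it in 31 of the 61 genes, as 16 bases with 6 paired positions around a loop of 4 (capitals). The H2A, H2B and H3 genes shared 1 stem, except H2AC11, and the H4 genes another. The letters are DNA, 5′ to 3′.
17 genes (6 H2A, 8 H2B and 3 H3): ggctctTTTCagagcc
4 genes (3 H2B and 1 H3): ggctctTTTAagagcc
5 H4 genes: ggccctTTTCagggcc
3 H4 genes: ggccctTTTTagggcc
H3C6: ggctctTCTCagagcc
H2AC11: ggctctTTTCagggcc
The other 30 genes, all 5 H1 genes among them, have models in that annotation without such a stretch, which says only that these models do not hold it. All 61 genes were matched to GENCODE, 4 of them by an older symbol.

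Promoters of the leading H1 gene, the leading H2A gene and the H2B gene with the largest rise are shown because they carry different sets of known histone promoter elements. They come from RefSeq on GRCh38.p14 and run 250 bases up to the start of the gene. Capitals mark TATAAA (the TATA box), CCAAT and ATTTGCAT (the octamer) on either strand, and none of these matches overlap. GGTCC is left unmarked; in the H2BC21 window it shares bases with a reversed CCAAT. The H2BC21 window lies at chr1:149886683-149886932 on the minus strand, H2AC18 at chr1:149842751-149843000 on the minus strand and H1-2 at chr6:26056471-26056720 on the minus strand.
H2BC21: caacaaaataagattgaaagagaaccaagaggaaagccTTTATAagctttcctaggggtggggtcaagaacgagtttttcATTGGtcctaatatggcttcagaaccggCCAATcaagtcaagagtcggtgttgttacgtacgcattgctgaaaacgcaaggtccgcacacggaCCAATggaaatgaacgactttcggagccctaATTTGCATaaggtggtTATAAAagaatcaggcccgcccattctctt
H2AC18: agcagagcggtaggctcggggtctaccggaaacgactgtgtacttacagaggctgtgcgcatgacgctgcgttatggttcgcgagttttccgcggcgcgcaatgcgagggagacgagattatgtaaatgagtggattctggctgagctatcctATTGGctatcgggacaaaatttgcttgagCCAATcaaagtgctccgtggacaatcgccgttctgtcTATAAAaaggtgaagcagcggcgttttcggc
H1-2: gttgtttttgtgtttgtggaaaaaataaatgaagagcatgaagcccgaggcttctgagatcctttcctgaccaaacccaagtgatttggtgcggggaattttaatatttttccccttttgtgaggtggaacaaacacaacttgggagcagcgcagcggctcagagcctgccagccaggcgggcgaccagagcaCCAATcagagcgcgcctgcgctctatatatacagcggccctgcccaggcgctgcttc
The H2BC21 window spans the whole stretch between that gene and H2AC20, its head-to-head neighbour, and holds all 3 elements.

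Such windows were given for 57 of the genes and were searched on both strands for 4 motifs. CCAAT stood in 48 of the 57 (84.2%), against 32.01% of all 35116 promoter windows of the same length. It was in every H1, H2A, H2B and H3 window and in 2 of 11 H4 windows. GGTCC, the core of the H4 promoter element read by HINFP, stood in 11 of 11 H4 windows and in 19 of 57 in all (33.3%, against 40.7% of all windows). ATTTGCAT stood in 10 of 15 H2A and 11 of 15 H2B windows and in 38.6% of the 57, against 1.63% of all windows. TATAAA stood in 36 of the 57 (63.2%, against 10.7%). Head-to-head H2A and H2B neighbours share most of their windows, so the same match can count for both genes. These matches describe letters in a window and are no measure of binding.

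In BMH-21 the cluster histones were higher as a group and in each class. The summed level of the 61 genes was 119.7, 107.4 and 118.0 TPM in control replicates 1 to 3 and 615.8, 633.3 and 671.2 TPM in BMH-21 replicates 1 to 3. TPM is a level per transcript length, scaled so that a gene's value is relative to all other genes of its library. The means were 115.0 ± 6.67 and 640.1 ± 28.3 TPM (SD, n = 3 each), a ratio of 5.56, and the groups did not overlap. The genes held between 0.0108% and 0.0121% of all TPM in the control libraries and 0.0622% to 0.0678% after BMH-21. Scaling by median of ratios, which moved the median log2 change over the tested genes from 0.19 to 0.02, gave a ratio of 4.86. In the same libraries all 24 tested S phase genes were lower. In bulk RNA, a change in the share of cells that make a transcript and a change in its amount per cell cannot be told apart.

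Across all genes with any value above 0, a limma fit on log2(TPM + 1) called 23 of 60 histone genes higher and 1 lower (Benjamini-Hochberg adjusted p below 0.05), beside 11.6% of 22944 genes called higher and 6.96% called lower. H2AC4 was at 0 in all 6 libraries and was not tested. All 3 BMH-21 libraries lay above all 3 controls in 25 of the 61 genes and below them in 3, against 24.6% and 12.1% of 22944 genes. The median log2 change of the 60 genes was 0.43, and that of all 22944 genes was 0.05. The main fit took genes with a mean of at least 1 TPM over the 6 libraries. It tested 22 histone genes and called 18 higher and 0 lower, beside 23.3% of 12481 genes called higher and 12.9% called lower. At an unadjusted p below 0.05 limma also gave 0 lower, and 21 higher. Of the 22 genes, 9 had a control mean below 1 TPM and passed the filter only through their BMH-21 values; such genes had to be higher there, so these counts are a description. A filter on the control mean alone tested 14, with 12 higher and 1 lower, beside 21.6% and 13.6% of 12152 genes.

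By class, the ratio of summed levels ran from 3.70 for H3 to 10.4 for H1. The summed H1 level was 13.8, 14.1 and 16.4 TPM in the controls and 148.5, 152.6 and 157.7 TPM in BMH-21, a ratio of 10.4. The H2A sum went from 41.9, 42.6 and 42.1 TPM to 241.8, 242.2 and 258.3 TPM, a ratio of 5.86. These groups stood far apart, and the H2A controls were within 1 TPM of each other. The H2B sum was 24.7, 23.8 and 27.6 TPM in the controls and 102.9, 114.4 and 114.7 TPM in BMH-21, a ratio of 4.36. The H4 sum was 36.4, 24.6 and 27.2 TPM and then 111.3, 111.4 and 128.3 TPM, a ratio of 3.98. H3 was the smallest class, at 2.84, 2.28 and 4.64 TPM and then 11.3, 12.7 and 12.2 TPM, a ratio of 3.70. No class had overlapping groups. Differences between the class ratios were not tested, and the H3 ratio ranged from 3.22 to 4.71 when single libraries were left out.

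**Figure D1:**
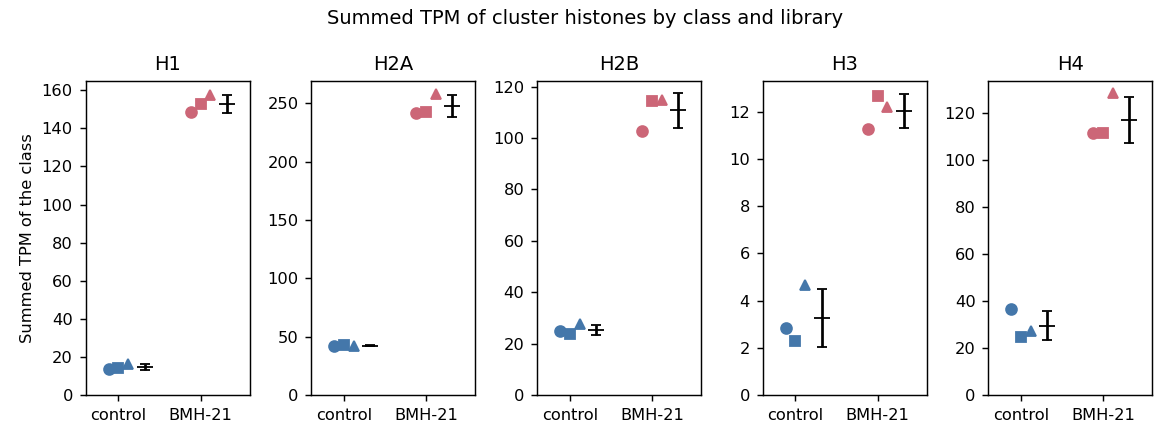
Summed TPM of each histone class in each library (circle, square and triangle for replicates 1, 2 and 3), with the mean and SD of the 3 libraries of a group beside them; each panel has its own linear axis starting at 0. In all 5 classes every BMH-21 library lies above every control, from a ratio of 3.70 for H3 to 10.4 for H1.

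A few genes carried most of the level in both groups. The 5 leading genes held 68.2% of the summed control mean and 71.3% of the summed BMH-21 mean, and 4 were the same genes in both. The 10 leading genes held 86.4% and 90.3%, with 9 shared. By control level, 7 genes had a mean of 5 TPM or more (H1-2, H2AC18, H2AC25, H2BC12, H4C12, H4C14 and H4C15). Of these, 6 were called higher without a filter and 7 in the main fit, beside 11.6% and 23.3% of all genes in those fits. With the filter on a control mean of at least 1 TPM, 21.6% of all genes were called higher. Another 7 lay between 1 and 5 TPM, of which 5 were called higher and 1 lower without a filter. Of the 41 genes below 1 TPM, 12 were called higher without a filter. The last 6 were listed at 0 in every control. The summed level of the 3 groups above 0 rose by ratios of 5.38, 6.65 and 2.84 in the same order. These level groups use control values that are also part of the contrast, so no test was made between them.

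**Figure D2:**
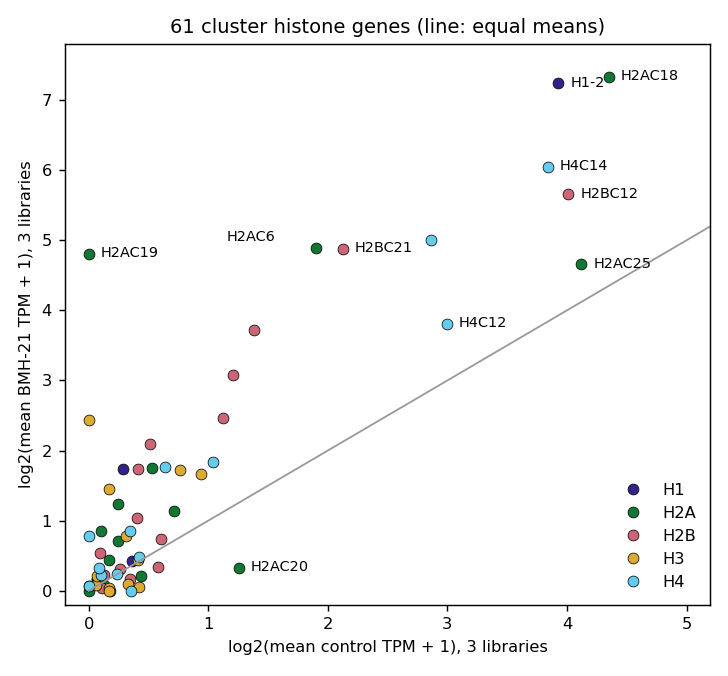
Mean BMH-21 level against mean control level of the 61 genes, both as log2(TPM + 1) over 3 libraries, coloured by class; the line marks equal means. The means were higher in BMH-21 for 48 genes and lower for 12, with H2AC20 the labelled gene under the line.

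Among the H1 genes, which encode the linker histones, H1-2 held nearly the whole class. H1-2 (chr6:26055740-26056470, minus strand, GRCh38.p14) had 13.4, 13.3 and 15.9 TPM in the controls and 146, 149 and 155 TPM in BMH-21. Every BMH-21 library was several times higher than every control. The log2 change was 3.32 ± 0.10 (SE; adjusted p = 2.4e-06, limma), the largest among the histone genes called in the main fit, and the ratio of means was 10.6. Its share of the H1 sum was 96.2% on average in the controls and 98.1% in BMH-21. H1-3 was near 0 in the controls, at 0.0819, 0.308 and 0.279 TPM, and had 2.19, 2.84 and 1.97 TPM in BMH-21 (log2 change 1.44 ± 0.16, adjusted p = 0.00041). It reached the filter only through BMH-21. The other 3 H1 genes, H1-4, H1-5 and H1-6, had means below 0.35 TPM in both groups, overlapped between groups and were not called.

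The H2A class was led by 2 genes of similar control level that ended far apart. H2AC18 (chr1:149842218-149842750, minus strand) had 19.04, 19.6 and 19.6 TPM in the controls and 154, 131 and 195 TPM in BMH-21, a log2 change of 2.96 ± 0.14 (adjusted p = 6.1e-06). H2AC25 had 15.5, 16.6 and 17.0 TPM in the controls and 21.9, 25.2 and 25.6 TPM in BMH-21, a log2 change of 0.53 ± 0.11 (adjusted p = 0.0081). Neither gene's groups overlapped. H2AC25's share of the H2A sum was 38.8% in the controls and 9.78% in BMH-21, while H2AC18's was 46.0% and 64.5%. The call of H2AC25 was lost with median-of-ratios scaling (log2 change 0.34, adjusted p = 0.064). H2AC6 had a log2 change much like that of H2AC18. Which of them was larger turned with quantile normalization and with a pseudocount of 5. The order also turned without control replicate 2 or 3, without BMH-21 replicate 2 and without both number 2 libraries. All 31-base stretches of H2AC18 also occur in its copy H2AC19, so its own level, its share and its place beside H2AC6 are uncertain. Summed with H2AC19, the log2 change was 3.20 ± 0.08. H2AC6 had 3.52, 2.36 and 2.34 TPM in the controls and 28.5, 25.5 and 32.1 TPM in BMH-21 (log2 change 2.999 ± 0.17, adjusted p = 1.3e-05). H2AC11 went from a mean of 0.445 to 2.36 TPM (log2 change 1.17 ± 0.25, adjusted p = 0.0087) and passed the filter through BMH-21. Below the filter, H2AC7 and H2AC13 were also called higher in the fit without a filter (log2 changes 0.74 and 0.99). Only 1.93% and 36.2% of their 31-base stretches are unique to them, so their own levels are uncertain.

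H2AC20 went the other way and was the only histone gene called lower in the fit without a filter; it is named here because its values were seen. It had 1.05, 1.87 and 1.23 TPM in the controls and 0.254, 0.324 and 0.188 TPM in BMH-21. The groups did not overlap, and the log2 change was -0.91 ± 0.15 (adjusted p = 0.0081). Of its 31-base stretches, 40.0% also occur in H2AC18, a gene that rose, so reads could be shared between them. The part of shared reads in its value was not tested. H3C3 and H3C7 also had all BMH-21 libraries below all controls, at control means of 0.259 and 0.337 TPM, and were not called (adjusted p = 0.24 and 0.12 without a filter).

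In the H2B class all 7 genes tested in the main fit were called higher, and 9 of 15 without a filter, beside 23.3% and 11.6% of all genes. Of the 7, H2BC8 and H2BC26 passed the filter only through BMH-21. H2BC12 (chr6:27138293-27146858, minus strand) was the leading gene, with 13.8, 15.2 and 16.3 TPM in the controls and 45.2, 52.8 and 50.7 TPM in BMH-21 (log2 change 1.65 ± 0.11, adjusted p = 3.1e-05). H2BC21 rose the most, from 3.90, 2.16 and 4.02 TPM to 27.6, 30.9 and 26.9 TPM (log2 change 2.79 ± 0.20, adjusted p = 3.7e-05). The H2BC12 share of the H2B sum was 59.7% in the controls and 44.7% in BMH-21, and the H2BC21 share was 13.1% and 25.8%. H2BC5 had 1.92, 1.29 and 1.63 TPM in the controls and 9.54, 12.4 and 14.4 TPM in BMH-21 (log2 change 2.32 ± 0.19, adjusted p = 6.9e-05). H2BC11 had 0.756, 1.55 and 1.61 TPM and then 6.96, 6.45 and 8.84 TPM (log2 change 1.88 ± 0.21, adjusted p = 0.00034). No H2B gene among these had overlapping groups. H2BC18, H2BC8 and H2BC26 rose from means of 1.17, 0.428 and 0.328 TPM to 4.52, 3.28 and 2.32 TPM. H2BC12 shares 74.4% of its 31-base stretches with H2BFS, an H2B gene outside the symbol rule, so its own level is uncertain.

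H3 cluster genes were low throughout: no H3 gene had a group mean of 5 TPM or more. H3C10 was the only H3 gene called in the main fit, from 0.691, 0.794 and 0.597 TPM to 2.09, 2.47 and 2.31 TPM (log2 change 0.96 ± 0.14, adjusted p = 0.0015). H3C6, named after its values were seen, went from 0.153, 0.0591 and 0.160 TPM to 1.75, 1.79 and 1.66 TPM. Its groups did not overlap, and it was called in the fit without a filter (log2 change 1.28 ± 0.09, adjusted p = 0.00048), as was H3C13 (0.46 ± 0.11, adjusted p = 0.038). Only 13.6% of the 31-base stretches of H3C13 are unique to it, so its own level is uncertain. H3C15 had the highest control mean of the class, 0.920 TPM, and belongs to a pair of identical copies.

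H4 was led by H4C14 (chr1:149832657-149833052, plus strand), with 14.4, 12.8 and 12.8 TPM in the controls and 81.9, 51.2 and 62.7 TPM in BMH-21 (log2 change 2.19 ± 0.17, adjusted p = 5.4e-05). H4C14 shares 98.6% of its 31-base stretches with H4C15, so its own level is uncertain. H4C12 rose less, from 6.69, 6.39 and 7.86 TPM to 10.7, 13.3 and 14.998 TPM (log2 change 0.81 ± 0.16, adjusted p = 0.0061). Neither had overlapping groups. The H4C12 share of the H4 sum was 24.4% in the controls and 11.1% in BMH-21. All of its 31-base stretches occur in H4C11, which was listed at 0 in the controls and in 2 BMH-21 libraries and had 2.15 TPM in BMH-21 replicate 1. H4C15 had 11.6, 3.42 and 3.75 TPM in the controls and 10.2, 41.4 and 42.1 TPM in BMH-21, so 1 BMH-21 library lay below 1 control. The call (log2 change 2.09 ± 0.58, adjusted p = 0.025) was lost without control replicate 2 or 3 (adjusted p = 0.073 and 0.086), without BMH-21 replicate 2 or 3 (0.058 and 0.076) and without a filter (0.073). It was also lost without both number 2 libraries. H4C8 changed from 0.561 TPM to 2.41 TPM (log2 change 1.09 ± 0.23, adjusted p = 0.0081). H4C5 had means of 1.06 and 2.56 TPM, overlapped and was not called (adjusted p = 0.063); without control replicate 1 its adjusted p was 0.013.

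**Figure D3:**
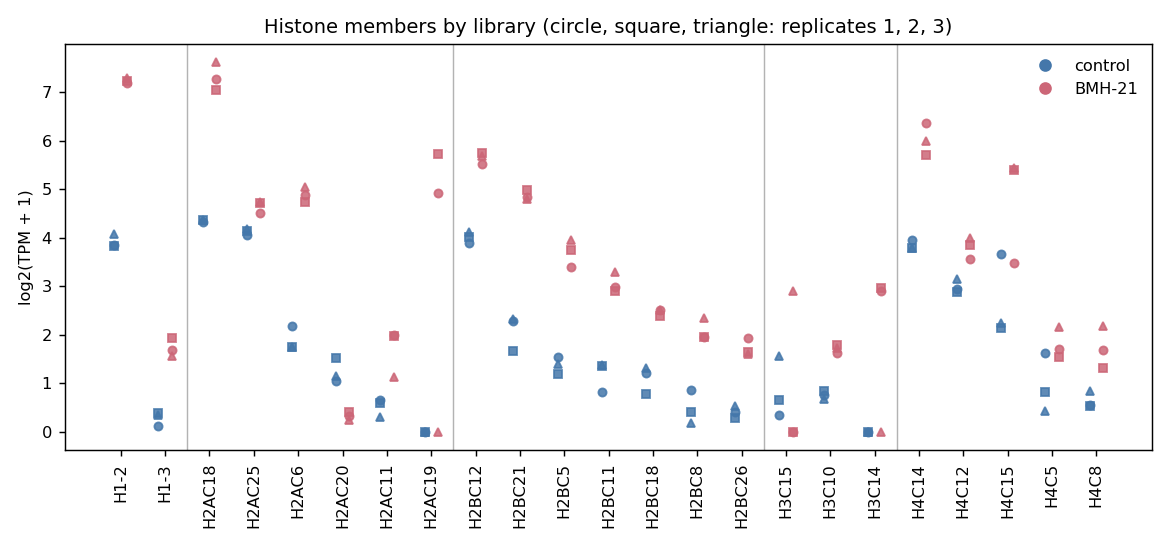
Level of each histone gene with a mean of at least 1 TPM over the 6 libraries or over the 3 controls, as log2(TPM + 1) in each library; circle, square and triangle are replicates 1, 2 and 3 and grey lines separate the classes. H2AC19, H3C14, H3C15 and H4C15 are the genes whose BMH-21 libraries lie far apart, and H2AC20 is the gene whose BMH-21 libraries all lie below its controls.

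In 3 pairs of near-identical copies in the chromosome 1 cluster the single values differed widely between the BMH-21 libraries and the sums less. H2AC19 is a copy of H2AC18: 97.2% of its 31-base stretches occur in H2AC18, and 249 bases of their promoter windows run without a difference. H2AC19 was listed at 0 in the controls and had 29.2, 51.9 and 0 TPM in BMH-21, and it was not called in the main fit (adjusted p = 0.060); without BMH-21 replicate 3 it was (adjusted p = 2.2e-05). H2AC18 was highest in the library where H2AC19 was at 0. Summed, the pair had 19.04, 19.6 and 19.6 TPM in the controls and 183, 183 and 195 TPM in BMH-21 (log2 change 3.20 ± 0.08, adjusted p = 1.0e-06). The coefficient of variation of the BMH-21 libraries was 3.74% for the sum, against 20.3% and 96.2% for H2AC18 and H2AC19 singly.

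H3C14 and H3C15 share all of their 31-base stretches. H3C14 was listed at 0 in the controls and had 6.50, 6.79 and 0 TPM in BMH-21 (adjusted p = 0.060, and 4.0e-05 without BMH-21 replicate 3). H3C15 had 0.262, 0.564 and 1.93 TPM in the controls and 0, 0 and 6.53 TPM in BMH-21 (log2 change 0.13 ± 0.74, adjusted p = 0.91). Where 1 copy had a value in BMH-21, the other was at 0. Their sum had 0.262, 0.564 and 1.93 TPM in the controls and 6.50, 6.79 and 6.53 TPM in BMH-21, with no overlap (log2 change 2.08 ± 0.29, adjusted p = 0.0012). This sum is called, and neither copy was in the main fit. H4C14 and H4C15 share 98.6% and 97.2% of their stretches with each other. Summed, they had 26.0, 16.2 and 16.5 TPM in the controls and 92.0, 92.6 and 104.8 TPM in BMH-21 (log2 change 2.27 ± 0.18, adjusted p = 5.8e-05). The overlap seen for H4C15 was gone, and the ratio of the sums was 4.92. Summing copies was chosen after the values had been seen. Across all genes with the sums as features, the p-values were adjusted in the same way.

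**Figure D4:**
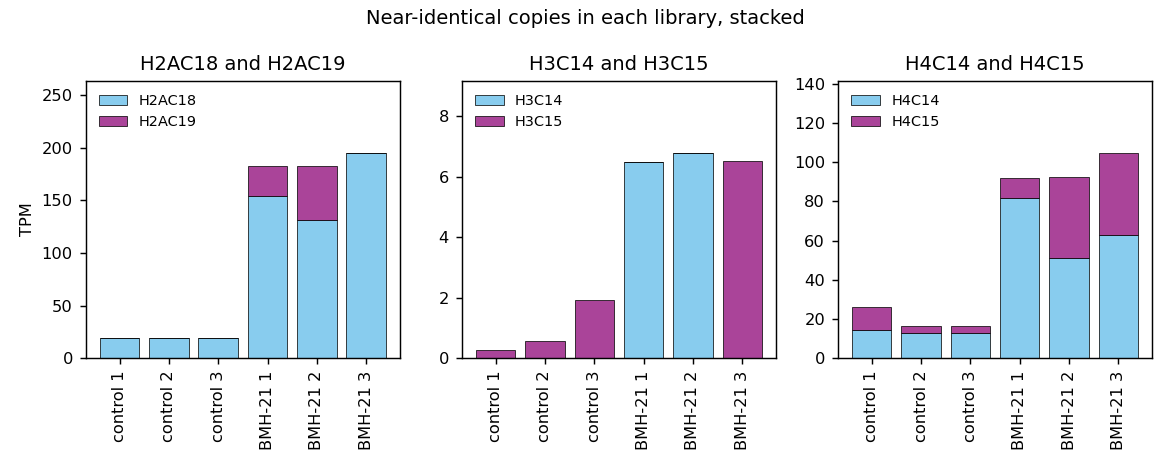
TPM of the 3 pairs of near-identical copies in each library, stacked. The split between copies changes from library to library, and the BMH-21 sums lie at 183 to 195, 6.50 to 6.79 and 92.0 to 104.8 TPM, each above all control sums.

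An H2A and an H2B gene faced away from each other in 11 pairs, with starts 194 to 248 bases apart, so that each pair shares the stretch between the starts. In the fit without a filter both genes were called higher in 2 pairs, H2AC11/H2BC11 and H2AC25/H2BC26. A single gene was called higher in 6 pairs and neither in 2. The background, 11.6% of all genes called higher, is for single genes; no pair count was tested. H2AC20 and H2BC21, whose starts are 236 bases apart on chromosome 1, were called in opposite directions. H2AC20 went from 1.39 to 0.256 TPM and H2BC21 from 3.36 to 28.5 TPM (log2 changes -0.91 and 2.79). This is the pair whose shared stretch is printed as the H2BC21 promoter. In H2AC12/H2BC12, with starts 248 bases apart, H2BC12 went from 15.1 to 49.6 TPM, and H2AC12 had 0.358 and 0.157 TPM and was not called. In H2AC6/H2BC4, with starts 246 bases apart, H2AC6 went from 2.74 to 28.7 TPM and H2BC4 had 0.519 and 0.663 TPM and was not called. Differences between the 2 genes of a pair were not tested.

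**Figure D5:**
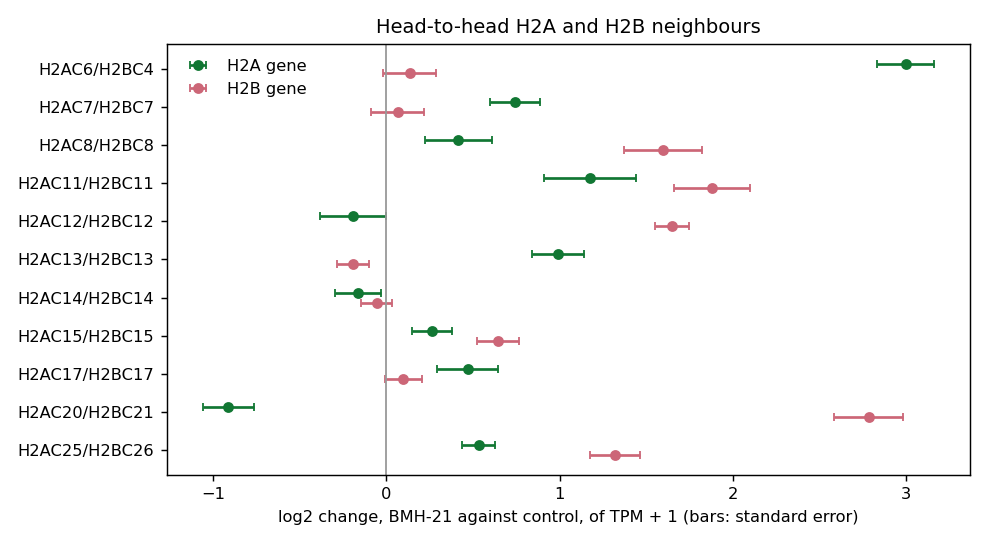
Log2 change of TPM + 1, BMH-21 against control, with its standard error from the fit without a filter, for the H2A gene (green) and the H2B gene (red) of the 11 head-to-head pairs. H2AC20 lies at -0.91 and its partner H2BC21 at 2.79; H2AC6 lies at 2.999 and its partner H2BC4 at 0.13.

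By location, the summed levels were as follows. The 28 genes of the first chromosome 6 cluster (chr6:26020451-26285534) had a mean sum of 25.3 TPM in the controls and 209 TPM in BMH-21, a ratio of 8.23, to which H1-2 and H2AC6 gave most. The 11 genes of the chromosome 1 cluster (chr1:149782689-149887965) went from 46.1 to 324 TPM, a ratio of 7.03. The 5 genes at chr6:27132316-27147562 and the 14 genes at chr6:27807479-27893891 rose by ratios of 3.45 and 2.17. H2AC25 and H2BC26, which lie apart on chromosome 1 (chr1:228457364-228458558), had a ratio of 1.59. H4C16, the only one on chromosome 12, had means of 0.271 and 0.811 TPM and was not called without a filter (adjusted p = 0.057). At each of these places every BMH-21 sum lay above all control sums.

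Transcript models and promoters were set beside the calls. Of the 23 genes called higher without a filter, 13 had a GENCODE model that runs more than 100 bases past the stem-loop, against 10 of the other 38. No model with a stem-loop was held by 7 of the 23 and by 23 of the 38, so these genes could not be counted. In the remaining 3 and 5 genes the models ended within 100 bases of it. The longest model had a median of 1237 bases in the called genes and 423 bases in the others. Longer models also spread a gene's reads over more bases when TPM is formed, and the gene models behind the deposited values were not given in the sources used here. TATAAA stood in 65.2% of called and 61.8% of other windows, CCAAT in 87.0% and 82.4%, ATTTGCAT in 39.1% and 38.2%, and GGTCC in 26.1% and 38.2%. Head-to-head H2A and H2B neighbours share most of their windows, and several such pairs have a gene on each side of this comparison. The motif percentages were therefore partly bound to be alike. The median share of 31-base stretches unique to the gene was 89.0% and 90.01%. This share was under 20% in 6 of the called genes and 8 of the others. These are descriptions with no test.

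Genes for DNA replication, the process that the cluster histones accompany, moved in the opposite direction. Beside a background of 12.9% called lower, all 24 tested genes of 25 in an S phase list were lower in BMH-21 (0 were higher by limma, also at an unadjusted p below 0.05), with a median log2 change of -2.71. MCM7, a subunit of the replicative helicase and the list's highest gene over all 6 libraries, went from 370 ± 10.2 to 47.5 ± 6.08 TPM (SD, n = 3). RRM2, which makes deoxynucleotides, fell the most, from 142 ± 47.5 to 2.71 ± 2.29 TPM (log2 change -5.39 ± 0.43, adjusted p = 6.4e-05). The part of this change in the histone values was not tested. Of 6 histone chaperone genes 4 fell and 0 rose (0 also at an unadjusted p below 0.05). ASF1B, which hands H3 and H4 to the replication fork, changed from 113 ± 12.4 TPM to 3.75 ± 1.91 TPM (log2 change -4.66 ± 0.25, adjusted p = 1.1e-05). NASP, an H3 and H4 carrier and the list's highest gene by the mean over all 6 libraries, had 102 ± 13.1 and then 77.0 ± 1.67 TPM (log2 change -0.40 ± 0.11, adjusted p = 0.021).

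Genes for making, processing and decaying histone mRNA numbered 22, of which 18 were tested, with 2 called higher and 1 lower, beside 23.3% and 12.9% of all 12481 genes. SLBP, the stem-loop binding protein, fell from 47.7, 43.1 and 42.5 TPM to 24.96, 25.7 and 25.3 TPM (log2 change -0.79 ± 0.09, adjusted p = 0.00057). Its groups did not overlap, and it moved against the histone genes. NPAT, the coactivator of histone gene transcription, was below 1 TPM in all 6 libraries (means 0.324 and 0.407 TPM) and was not tested. HINFP, which reads the H4 promoter element, rose from 17.9 ± 1.39 to 30.6 ± 3.76 TPM (log2 change 0.74 ± 0.12, adjusted p = 0.0029). LSM1, a decay factor, rose from 13.7 ± 2.05 to 21.1 ± 2.01 TPM (adjusted p = 0.013) and lost its call with median-of-ratios or quantile scaling (0.093 and 0.082). LSM11 of the U7 snRNP, at 4.34 and 2.84 TPM, was not called in the main fit and was called lower under both of those scalings. SYMPK, a scaffold of the cleavage complex and by a small margin the list's highest gene over all 6 libraries, had 69.5 ± 11.6 and 82.7 ± 7.67 TPM and was not called (adjusted p = 0.17).

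Of the listed histone variant genes outside the symbol rule 10 were tested. In the main fit 3 rose (H2AJ, H3-3A and H3-3B) and 5 fell (CENPA, H2AX, H2AZ1, H2AZ2 and H1-10), beside 23.3% and 12.9% of all 12481 genes. The share that rose is near that background. CENPA, the centromeric H3, fell the most, from 19.99 ± 0.411 to 0.918 ± 0.358 TPM (log2 change -3.47 ± 0.17, adjusted p = 6.6e-06). H2AX, the variant phosphorylated at DNA breaks, fell from 131 ± 28.5 to 49.3 ± 4.94 TPM (log2 change -1.37 ± 0.16, adjusted p = 0.00056). H2AJ rose from 23.3 ± 1.29 to 32.01 ± 2.71 TPM (log2 change 0.44 ± 0.11, adjusted p = 0.015). H3-3B, the list's highest gene over all 6 libraries, rose from 446 ± 12.3 to 559 ± 55.7 TPM (log2 change 0.32 ± 0.09, adjusted p = 0.029). With median-of-ratios scaling 0 of these rose by limma (0 also at an unadjusted p below 0.05) and 6 fell, MACROH2A2 being added. H2AJ also lost its call with quantile scaling.

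As a check of the labelled cell line, 9 melanoma and melanocyte genes summed to between 1904 and 2065 TPM in the controls and between 1906 and 1915 TPM in BMH-21. SOX10, MIA, PRAME and S100B carried the sum, MLANA was at 0 in every library, and TYR and DCT were at or near 0. MITF and PMEL were low, with means of 1.42 and 0.809 TPM in the controls and 1.29 and 1.70 TPM in BMH-21. Of the 9, 6 were tested, with 2 called higher (PMEL and S100B) and 0 lower by limma (0 lower also at an unadjusted p below 0.05). Marker genes of blood (2 genes), endothelium, epithelium and fibroblasts summed to at most 0.162, 1.34, 5.80 and 2.51 TPM in any library, and KRT14 made up most of the epithelial sum. The deposited columns summed to between 989360 and 990760 TPM. TPM keeps no read totals, so the depth is unknown and intervals for counting error could not be formed.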

How the data were processed

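RNA of 3 control and 3 BMH-21 libraries of A375 was analysed. The authors deposited TPM, 1 value per gene symbol and library. STAR, Salmon and GRCh38 are named in the submitters' processing notes; versions, settings and annotation were not given in the sources used here. Salmon divides reads among similar sequences, so single values of near-identical histone genes are uncertain. The histone genes and the gene lists were chosen with earlier results of these data known.

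Genes with a mean of at least 1 TPM over 6 libraries were tested on log2(TPM + 1) with limma 3.58.1 (R 4.3.3; trend, two-sided), and p-values were adjusted by the Benjamini-Hochberg method over all 12481 genes, with 0.05 as the threshold. A pseudocount of 1 understates the change of low genes. Text and figures used Python 3.11.15, pandas 2.3.3, numpy 2.4.6 and matplotlib 3.10.9. All ± values beside a log2 change are standard errors. Ratios are ratios of group means. Single comparisons of 3 against 3 libraries cannot go below p = 0.1 in an exact permutation test, so only the fit across genes was used. The p-values set the group difference against the spread between these libraries, which limma moderates across genes. All libraries came from a single cell line, so the p-values do not cover other lines.

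Genes were named by a rule: any histone gene with a mean of at least 5 TPM in either group; in each class the gene of highest control mean and the called genes of largest rise and fall; in each list the highest gene, the called genes of largest rise and fall, and SLBP, NPAT, H2AX and H2AJ. Other genes named were picked after their values were seen. Some genes of the lists are not reported here and were left out of the list counts. ATTTGCAT was added to the motif search in the same way. Positions are those of RefSeq on GRCh38.p14; transcript models and the 31-base comparison are those of GENCODE v29. A gap of more than 500000 bases between genes starts another location. Alternatives in pseudocount, filter, scaling, replicate block and libraries left out were tried.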

Additional observations from a re-analysis of the deposited data

How the results depend on the processing

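Alternatives covered 3 pseudocounts, 4 filters, 3 scalings, the replicate block, each library left out in turn and, chosen after seeing the data, both libraries numbered 2 left out and copies summed. The count called higher was 18 of 22 tested in the main fit and stayed within 1.5 times of 18 except at a filter of 5 TPM (10 of 11 tested). The number tested changed with the filter: 23 of 60 were called with no filter, 25 of 50 at 0.1 TPM and 12 of 14 with the control filter. Beside these, 23.3% of all genes were called higher in the main fit, 11.6% with no filter and 21.6% with the control filter. The share over all genes was not taken for the other settings, so their counts stand without a background. Without single libraries the count ran from 16 to 20. The count called lower was 1 (H2AC20) with no filter, at 0.1 TPM, with the filter on the control mean and without the 50 highest genes, and 0 otherwise. H1 genes called higher came to 1 at 5 TPM and with the control filter, and to between 1 and 2 without single libraries. H2B came to 3 at 5 TPM. H3 came to 3 with no filter and at 0.1 TPM, to 2 without the 50 highest genes, with the replicate block and with copies summed, and to between 1 and 2 without single libraries; no H3 gene was tested at 5 TPM or with the control filter.

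The median log2 change of tested histone genes, 1.62, was 2.37, 2.03 and 0.72 with pseudocounts of 0.1, 0.5 and 5. It was 0.43 with no filter, 0.54 at 0.1 TPM, 2.32 at 5 TPM and 1.98 with the control filter, each over another set of genes. It was 1.48 after median-of-ratios scaling, 1.47 after quantile normalization, 1.48 without both number 2 libraries, and between 1.47 and 1.63 without single libraries. Median-of-ratios scaling lowered the ratio of sums to 4.86 for all genes, 9.03 for H1, 5.09 for H2A, 3.81 for H2B, 3.28 for H3 and 3.49 for H4. Without single libraries the ratio ran from 10.02 to 10.97 for H1, from 3.22 to 4.71 for H3 and from 3.68 to 4.52 for H4; H3 came to 3.14 without both number 2 libraries. H3C15 reversed to -0.96 and -0.056 with pseudocounts of 0.1 and 0.5, to -0.015 with quantile normalization and to -0.13 without control replicate 1, the lowest of a range up to 0.61 without single libraries; the cause was not tested. Of the single-gene values, 374 kept direction and side of the threshold, 7 lost a call, 5 gained a call and 4 reversed.

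Same-numbered libraries did not deviate together (correlations of -0.045, -0.340 and -0.078). The labels state no pairing, and with 3 libraries in a group these correlations cannot decide whether same-numbered libraries belong together. With the replicate block 20 histone genes were called higher, H2AC19 (adjusted p = 0.034) and H3C14 (0.037) being added. The share of all genes called with the block was not taken, so this gain cannot be set against a background. Levels below 1 TPM may rest on few reads, which TPM does not show.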
